A study of Mus musculus with 15 samples.

Results

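The effect of losing the mineralocorticoid receptor (MR) on hippocampal transcripts was measured by setting 7 arrays from mice without MR against 8 arrays from mice with MR, adjusted for whether the glucocorticoid receptor (GR) was present. All 15 arrays of the series entered the comparison. The arrays without MR were 4 from MREmx1-cre mice, which lack MR, and 3 from GRMREmx1-cre mice, which lack MR and GR. Those with MR were 4 from dflox mice, which have floxed Nr3c1 and Nr3c2 alleles and no Cre, and 4 from GREmx1-cre mice, which lack GR. Per the series' design, MREmx1-cre mice come from the MR-floxed line, GREmx1-cre mice from the GR-floxed line and GRMREmx1-cre mice from the line floxed at both genes. All mice were C57BL/6 males of about 2.5 months, and RNA was taken from the whole hippocampus of both hemispheres. Emx1-Cre recombines in the excitatory neurons and much of the astroglia of the dorsal forebrain, so interneurons, microglia and vessels of these mice should keep both receptor genes. MREmx1-cre differed from dflox by the presence of Cre and by the lack of a floxed Nr3c1 allele as well as by MR, and GRMREmx1-cre differed from GREmx1-cre by the floxed Nr3c2 allele. Those differences cannot be told apart from receptor loss within either pair. The labels do not say that each array is a separate mouse, so p-values measure the spread between these samples.

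MR and GR are closely related nuclear receptors that bind corticosterone, move to the nucleus and act at the same DNA element. MR binds corticosterone with the higher affinity and is occupied at resting hormone levels, while GR is occupied mainly at the daily peak and under stress. MR is abundant in hippocampal neurons, in the dentate gyrus and in all CA fields, and is densest in CA2. Mice without forebrain MR are known for altered stress and memory behaviour, and CA2 neurons are known to depend on MR for their identity genes.

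Levels are log2 intensities relative to the 75th percentile of the array, so 0 is that percentile, and a level of one gene is not set against that of another. The 75th percentile itself lay between 841.234 and 982.132 intensity units on the arrays without MR and between 821.237 and 1027.29 on the arrays with MR, and 29823 to 32058 spots per array were well above background. The hippocampal markers Prox1, Calb1, Wfs1, Amigo2 and Homer3 were well above background on all 15 arrays. The 4 genotypes were hybridised on 4 separate slides, which cannot be told apart from genotype, although each side of the comparison spans 2 of them. With the slide as a random block, 1848 genes were higher and 1090 lower without MR. As slide and genotype coincide, that fit cannot remove a slide difference between the arrays with and without MR. Some arrays stood apart from their group. MREmx1-cre replicate 2 had a mean deviation of -4.14 over 13 choroid plexus markers, GREmx1-cre replicate 1 had 0.62 over 9 thalamus and habenula markers, and dflox replicate 3 was the lowest of the 4 dflox arrays for 309 (79.6%) of the 388 genes that fell in both GR states, against 27.5% of all genes. Leaving out dflox replicate 3 gave 2297 higher and 1417 lower genes in the additive model and 418 and 440 in both GR states. Leaving out the other two gave 1813 higher and 1093 lower.

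The receptor genes themselves were read by probes whose position relative to the deleted exons is not known here, so the probes do not test the deletion. Nr3c1, which encodes GR, had levels of 2.28, 2.16, 2.08 and 2.17 in MREmx1-cre and of -0.08, -0.03 and 0.09 in GRMREmx1-cre. The levels were 1.49, 1.79, 1.77 and 1.49 in dflox and -0.66, -0.53, -0.64 and -0.58 in GREmx1-cre. Within each GR state, the arrays without MR lay above all arrays with MR. Nr3c1 was higher without MR by 0.57 ± 0.06 (log2 fold change ± SE, limma adjusted p = 1.99e-05), by 0.60 where its gene was deleted and by 0.54 where it was intact, and its 4 probes ranged from 0.49 to 0.57. The GR term of the same fit was -2.21. Nr3c2, which encodes MR, had levels of -3.76, -3.68, -3.58 and -3.46 in MREmx1-cre and of -3.71, -3.73 and -4.01 in GRMREmx1-cre, against -3.45, -3.36, -3.65 and -3.57 in dflox and -3.09, -3.15, -3.06 and -3.04 in GREmx1-cre. MREmx1-cre and dflox overlapped on this probe, whereas GRMREmx1-cre lay below GREmx1-cre throughout. The Nr3c2 probe fell by 0.40 on the log2 scale (adjusted p = 0.0176), with differences of -0.73 without GR and -0.11 with GR, and the interaction passed the test (-0.62, adjusted p = 0.0395). Another Nr3c2 probe gave -0.84 without GR and -0.77 with GR. The third gave -0.45 without GR and -0.38 with GR, and did not pass over both states (limma adjusted p = 0.0501).

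**Figure D1:**
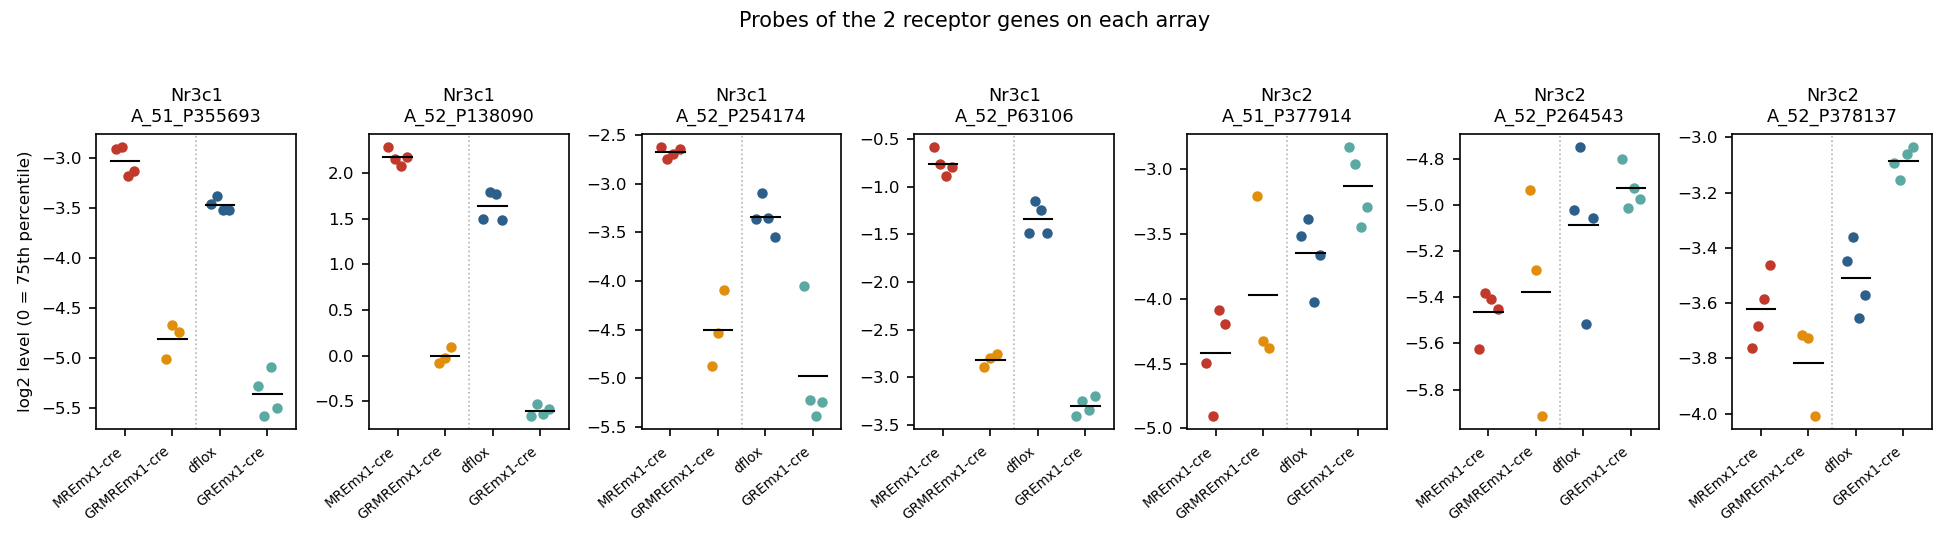
Log2 level of each probe of Nr3c1 (4 probes) and Nr3c2 (3 probes) on the 15 arrays, relative to the 75th percentile of the array, by genotype. Each point is 1 array. All Nr3c1 probes are lowest in the genotypes without GR, and at the brightest one the arrays without MR lie above those with MR in each GR state.

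Across 22871 tested genes, 3574 (15.6%) differed between the arrays without MR and the arrays with MR at a limma adjusted p below 0.05. Of these, 2299 (10.1%) were higher and 1275 (5.57%) lower without MR, and with arrays scaled to their median instead the split was 1553 higher and 1305 lower. Most differences were small. The median absolute log2 difference of the called genes was 0.32, and 89 genes were at least 2-fold higher and 87 at least 2-fold lower. All 7 arrays without MR lay above all 8 with MR for 505 genes (2.21%) and below them for 413 (1.81%), together 4.01%. The same additive model called 804 genes (3.52%) for GR loss.

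The comparisons within each GR state share no arrays. MREmx1-cre against dflox gave 962 higher (4.21%) and 595 lower genes (2.6%), 6.81% in all, and GRMREmx1-cre against GREmx1-cre gave 2108 higher (9.22%) and 1580 lower (6.91%), 16.1% in all. The genes called the same way in both numbered 848 (3.71%), of which 460 (2.01%) were higher and 388 (1.7%) lower, and 31 were called in opposite directions. That is 23.0% of the calls made without GR and 54.5% of those made with GR present. With each GR state fitted by itself, on fewer arrays, 204 genes were higher and 181 lower in both. Among the 3574 additive calls, 1378 were called only without GR, 414 only with GR and 934 in neither comparison alone. A test of the difference between the GR states called 295 genes (1.29%), including 34 of the additive calls and 8 of the 848. That count is fragile, at 83 without GRMREmx1-cre replicate 2, 143 without dflox replicate 3 and 434 without MREmx1-cre replicate 1. For 556 of the 848 the difference was the larger in size where GR was absent, with medians of 0.52 without GR and 0.46 with GR. The falls among the 848 were larger than the rises, with 72 at least 2-fold lower and 37 at least 2-fold higher.

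**Figure D2:**
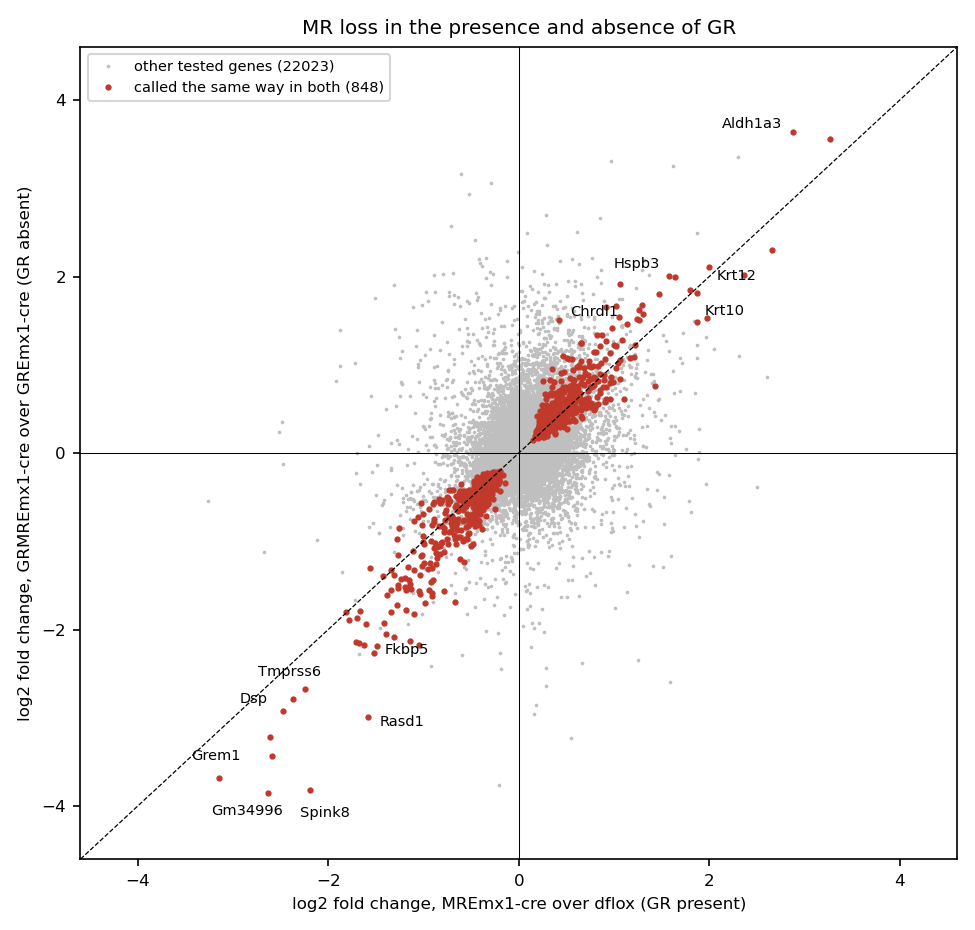
Log2 fold change of each tested gene with MR lost where GR is present (MREmx1-cre over dflox, x axis) and where it is absent (GRMREmx1-cre over GREmx1-cre, y axis). Red points are the 848 genes called the same way in both, grey points all other tested genes, and the dashed line marks equal changes.

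The largest rise that held in both GR states was that of Aldh1a3, a dehydrogenase that makes retinoic acid. Its levels were -0.69, -1.06, -1.42 and -0.56 in MREmx1-cre and -0.43, -0.03 and -0.52 in GRMREmx1-cre, against -4.13, -4.23, -3.22 and -3.66 in dflox and -4.17, -3.99, -3.75 and -3.94 in GREmx1-cre. No array without MR came near any array with MR. The difference was 3.23 ± 0.19 (adjusted p = 4.16e-07), or 9.38-fold, and the values in the 2 GR states were 3.64 without GR and 2.88 with GR. The GR term for the same gene was 0.20 (adjusted p = 0.661). Rxrg, the retinoid X receptor gamma, a partner of retinoic acid receptors, was higher by 1.15 ± 0.14 (adjusted p = 1.17e-04). Its levels had a lowest, median and highest value of 1.71, 2.01 and 2.24 over the 7 arrays without MR and of 0.18, 0.97 and 1.21 over the 8 with MR.

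Intermediate filament genes known from epithelia were among the largest rises. Krt12, the keratin of corneal epithelium, had levels of -0.90, -0.77, -0.71 and -0.48 in MREmx1-cre and -0.20, -0.49 and -0.54 in GRMREmx1-cre, against -2.83, -2.45, -2.71 and -2.84 in dflox and -2.89, -2.10, -2.51 and -2.56 in GREmx1-cre. The 2 sides did not overlap, and the difference was 2.04 ± 0.11 (adjusted p = 4.06e-07, 4.12-fold), at 2.11 without GR and 1.99 with GR. Krt10, an epidermal keratin, rose by 1.84 ± 0.11 and likewise did so by nearly the same amount without GR (1.81) and with GR (1.87). Hspb3, a small heat shock protein, rose by 1.81 ± 0.11, with a median level of -0.57 over the arrays without MR and of -2.39 over those with MR.

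The remaining 10 of the 15 largest rises were of genes with varied roles. Dach1, a transcriptional cofactor of the dachshund family, had levels of 1.11, 1.09, 1.20 and 1.29 in MREmx1-cre and 1.71, 1.54 and 1.26 in GRMREmx1-cre, against -0.32, -0.25, -0.10 and -0.52 in dflox and -0.08, -0.53, -0.32 and -0.25 in GREmx1-cre. Both knockouts stood above 1 and every array with MR below 0, a difference of 1.62 ± 0.09 (adjusted p = 4.06e-07). Bmp3, a member of the bone morphogenetic protein family that opposes other members, was higher by 1.47 ± 0.17, with levels from -3.29 to -2.41 without MR and from -4.57 to -3.50 with MR. The Wnt modulator Dkk2 was higher by 1.43 ± 0.19 and the related Dkkl1 by 1.37 ± 0.10. Unc13c, a presynaptic vesicle priming protein, was higher by 1.32 ± 0.16 and Hkdc1, a hexokinase-related protein, by 1.22 ± 0.08, with 1.22 in each GR state. Wdr95 (1.46), Abi3bp, an extracellular matrix protein (1.25), and Mup4 (1.17) complete the rises measured on both sides. Mup4 belongs to a family of near-identical major urinary protein genes that its probe may not tell apart, and Abi3bp was above background on only 3 of the 8 arrays with MR. Cyp2c23, a cytochrome P450 of a large gene family, was not well above background on any array with MR and was at least 1.80-fold higher without it (adjusted p = 1.82e-04).

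The largest fall called in both GR states was that of Gm34996, an uncharacterised gene. It had levels from -5.47 to -4.03 without MR and from -2.22 to -1.19 with MR, a difference of -3.19 ± 0.22. Grem1, a secreted antagonist of bone morphogenetic proteins, had levels of -5.71, -6.02, -5.85 and -5.25 in MREmx1-cre and -6.53, -6.18 and -6.21 in GRMREmx1-cre, against -2.68, -2.81, -4.32 and -2.66 in dflox and -2.56, -2.82, -2.89 and -3.25 in GREmx1-cre. The groups did not overlap, and dflox replicate 3 was the lowest array with MR. It was well above background on all 4 MREmx1-cre arrays and on 0 of the 3 GRMREmx1-cre arrays, whose levels are therefore bounds. Grem1 was at least 10.4-fold lower without GR and fell by 2.59 on the log2 scale with GR (limma adjusted p = 9.89e-05 and 6.81e-04). Spink8, a protease inhibitor marking CA1 pyramidal cells, had levels of -0.06, 0.61, 0.94 and 0.10 in MREmx1-cre and -0.94, -1.06 and -1.07 in GRMREmx1-cre, against 2.997, 2.67, 1.76 and 2.93 in dflox and 2.98, 2.74, 2.82 and 2.65 in GREmx1-cre. All 3 GRMREmx1-cre arrays lay below all 4 MREmx1-cre arrays, with differences of -3.82 without GR and -2.19 with GR, but the interaction did not pass the test (-1.63, adjusted p = 0.0581). Over both states Spink8 was 7.69-fold lower.

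Dsp, which encodes the desmosomal protein desmoplakin and marks dentate granule cells, had the smallest adjusted p of all genes. Its levels were -2.35, -2.73, -2.50 and -2.16 in MREmx1-cre and -2.98, -2.93 and -3.01 in GRMREmx1-cre, against 0.14, 0.26, -0.32 and 0.09 in dflox and 0.12, -0.04, -0.06 and -0.21 in GREmx1-cre. The 2 sides were separated by more than the whole spread within either. Dsp fell by 2.69 ± 0.11 on the log2 scale, or 6.43-fold (adjusted p = 2.98e-08). Tmem215 was not well above background on any array without MR and was at least 2.08-fold lower (adjusted p = 1.81e-06). The 15 largest falls also held Olfml2b (-2.56 ± 0.15), an olfactomedin-like matrix protein, Tmprss6 (-2.44 ± 0.23), a membrane serine protease, and Smoc2 (-1.87 ± 0.15), a calcium-binding matricellular protein. Fyb2 (-1.90), Strip2 (-1.83), Fam160a1 (-1.81) and A330070K13Rik (-1.72) completed the group with Wipf3 (-1.82), an actin regulator for which 1 GRMREmx1-cre array had no value and was dropped. The 3 probes of Strip2 differed in size, between -1.83 and -0.97. For 14 of these 15 falls dflox replicate 3 was the lowest dflox array, and all 15 still passed in both GR states without it.

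**Figure D3:**
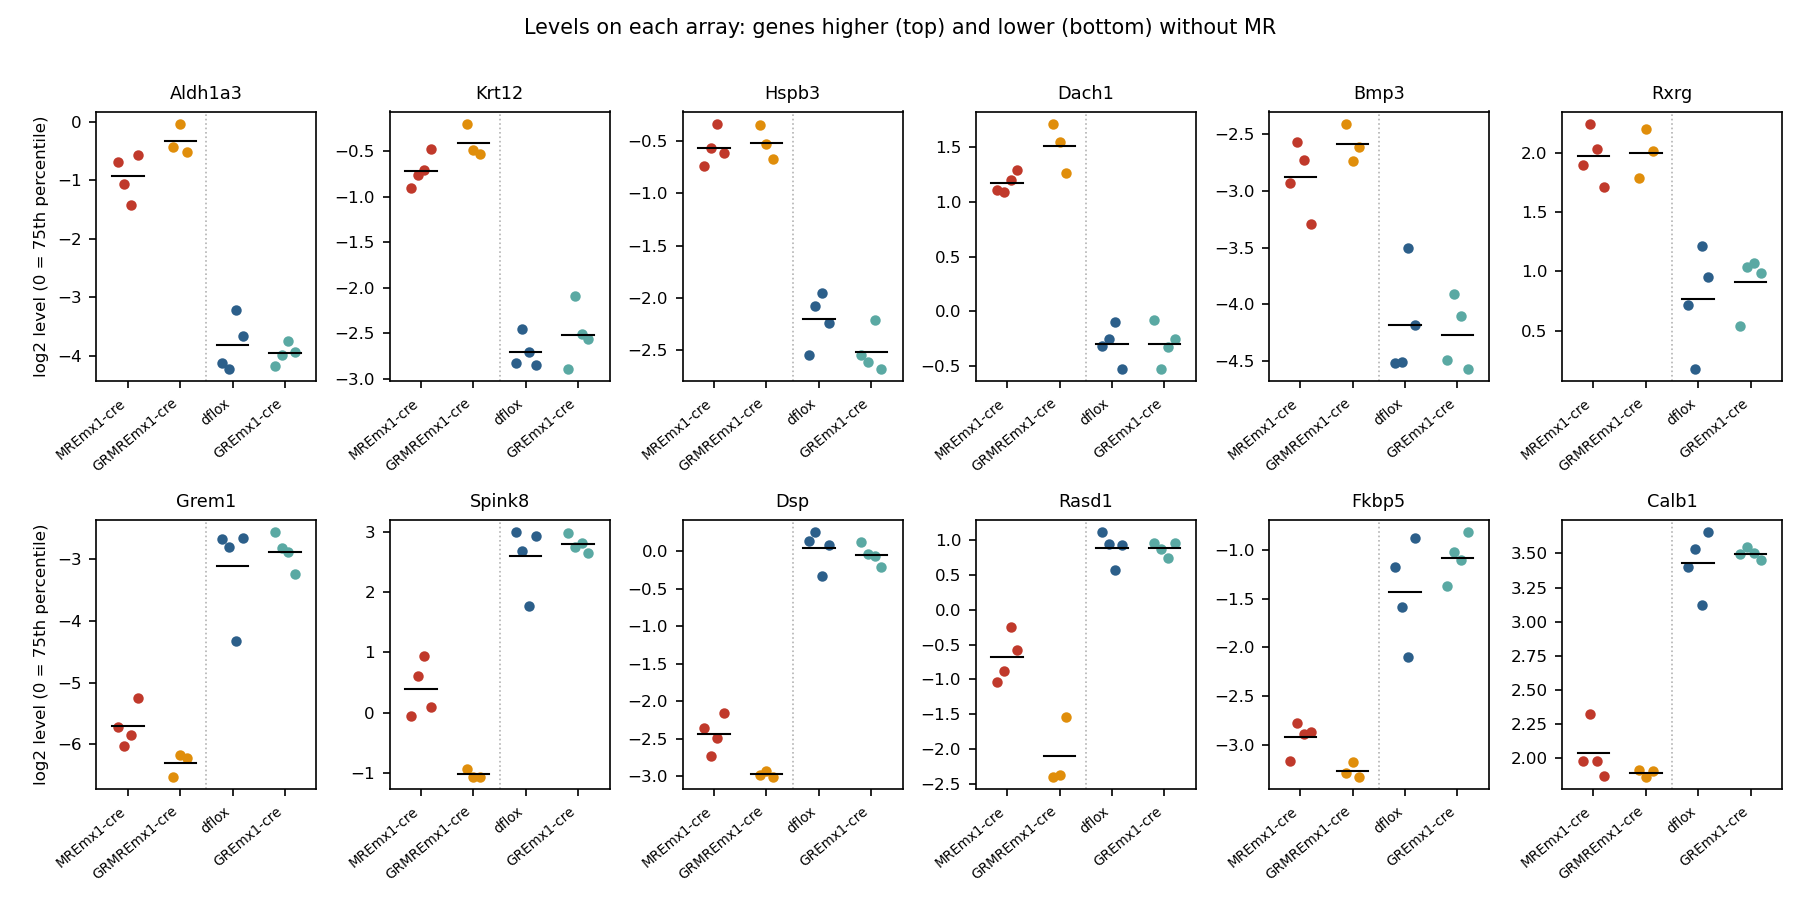
Log2 level of 12 genes on each array relative to the 75th percentile of the array, 6 higher (top) and 6 lower (bottom) without MR. Points are arrays, bars are group means and the dotted line separates MREmx1-cre and GRMREmx1-cre from dflox and GREmx1-cre. In each panel all arrays without MR lie on one side of all arrays with MR.

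The gene lists used from here on were chosen with earlier results of these data known. Their shares, set beside those of all genes, are therefore descriptive and not a test. Genes that corticosteroids are known to induce were lower without MR wherever they passed the additive test. Of 28 such genes tested, 0 were higher and 13 lower without MR, against 15.6% of all genes called, and the median log2 difference of the 28 was -0.32 against 0.03 over all tested genes. The mean deviation of the list ran from -0.33 to 0.01 over the arrays without MR and from -0.00 to 0.33 over those with MR. In both GR states 7 of the 28 were lower, against 1.7% of all genes. Fkbp5, a co-chaperone that restrains GR and is induced by it, had levels of -3.16, -2.77, -2.89 and -2.87 in MREmx1-cre and -3.29, -3.17 and -3.33 in GRMREmx1-cre, against -1.18, -1.58, -2.10 and -0.88 in dflox and -1.37, -1.03, -1.10 and -0.82 in GREmx1-cre. GREmx1-cre lay within or above the dflox range while both genotypes without MR lay below it. Fkbp5 fell by 1.81 ± 0.18 on the log2 scale (adjusted p = 1.70e-05), and its GR term was 0.03 (adjusted p = 0.952).

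Rasd1, a Ras-like GTPase named for its induction by dexamethasone, had levels of -1.03, -0.88, -0.24 and -0.58 in MREmx1-cre and -2.40, -2.37 and -1.54 in GRMREmx1-cre, against 1.12, 0.95, 0.58 and 0.93 in dflox and 0.96, 0.88, 0.75 and 0.96 in GREmx1-cre. The 3 GRMREmx1-cre arrays lay below every MREmx1-cre array, although GREmx1-cre and dflox overlapped. The fall of Rasd1 was -2.99 without GR and -1.58 with GR, and here the interaction passed the test (-1.41 ± 0.30, adjusted p = 0.0448). Also lower in both GR states were the transcription factors Cebpd (-1.09), Bcl6 (-0.77) and Cebpb (-0.36), the growth factor receptor inhibitor Errfi1 (-0.59) and the mTOR inhibitor Ddit4 (-0.48). Klf9, a Krüppel-like factor, fell by 0.38 over both states but passed only without GR (-0.50, adjusted p = 0.00191, against -0.27 and 0.0563 with GR). Tsc22d3, the leucine zipper protein GILZ, had -0.29 (adjusted p = 0.0463), a call lost on leaving out any of 12 single arrays.

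Dusp1, a phosphatase, and Pdk4, a metabolic kinase, did not pass in the additive model (0.15 and 0.06) and were higher in the comparison without GR, by 0.72 and 0.40 (limma adjusted p = 0.0293 and 0.0455), against -0.33 and -0.24 with GR, which did not pass. Their interactions did not pass the test (1.05 and 0.64, adjusted p = 0.0807 and 0.0866).

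Sgk1, a kinase that both receptors induce, differed from Fkbp5 in its GR term. Its levels were 2.79, 3.03, 3.49 and 3.11 in MREmx1-cre and 2.65, 2.67 and 2.87 in GRMREmx1-cre, against 3.98, 3.88, 4.10 and 3.31 in dflox and 2.79, 2.87, 2.98 and 3.29 in GREmx1-cre. Of the dflox arrays 3 lay above every other array, and the fourth lay among the other genotypes, which overlapped. Sgk1 fell by 0.50 ± 0.14 with MR lost (adjusted p = 0.027) and by 0.62 with GR lost (adjusted p = 0.029). The MR difference was -0.25 without GR (adjusted p = 0.417) and -0.71 with GR (adjusted p = 0.0323). The MR call was lost without dflox replicate 1, dflox replicate 2, GREmx1-cre replicate 4 or MREmx1-cre replicate 2. On leaving out each array of the series in turn, the difference was between -0.57 and -0.43. Among 11 effectors of aldosterone, the MR ligand in kidney, 0 were higher and 4 lower (3 to 6 on leaving out single arrays), against 5.57% of all genes called lower. Besides Sgk1 these were the kinase Wnk4 (-0.74), the ubiquitin ligase Nedd4l (-0.42), which was lower in both GR states, and the sodium pump subunit Atp1b1 (-0.34).

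Promoters are shown for Sgk1, whose response element is the textbook kind, and for the 2 genes lower in both GR states that hold a looser match. Each is 300 bases of RefSeq sequence (build GRCm38.p6) from 250 before the gene's start, read 5′ to 3′ on its own strand, with the match in capitals. The Sgk1 window is chr10:21993640-21993939 (+), that of Fyb2 chr4:104913311-104913610 (+) and that of Serpina3n chr12:104406458-104406757 (+).
Sgk1: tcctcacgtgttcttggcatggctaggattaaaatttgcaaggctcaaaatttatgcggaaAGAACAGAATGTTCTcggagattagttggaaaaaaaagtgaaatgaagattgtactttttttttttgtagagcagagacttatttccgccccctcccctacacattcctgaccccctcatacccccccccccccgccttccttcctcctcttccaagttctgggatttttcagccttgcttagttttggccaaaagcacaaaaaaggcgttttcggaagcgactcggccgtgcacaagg
Fyb2: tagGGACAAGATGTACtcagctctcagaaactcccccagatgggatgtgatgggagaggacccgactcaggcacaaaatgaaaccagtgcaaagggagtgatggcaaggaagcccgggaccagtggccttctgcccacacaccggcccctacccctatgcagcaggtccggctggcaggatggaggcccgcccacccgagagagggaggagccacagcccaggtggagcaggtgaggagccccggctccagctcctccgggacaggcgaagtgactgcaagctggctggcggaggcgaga
Serpina3n: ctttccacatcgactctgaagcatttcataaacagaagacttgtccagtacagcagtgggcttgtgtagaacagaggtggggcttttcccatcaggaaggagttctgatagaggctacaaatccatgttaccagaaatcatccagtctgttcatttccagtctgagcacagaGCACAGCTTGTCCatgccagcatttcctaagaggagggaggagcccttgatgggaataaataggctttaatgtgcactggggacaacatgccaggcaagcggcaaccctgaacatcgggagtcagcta
The full palindrome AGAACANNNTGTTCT, the same on both strands, was found in 1 of 12667 promoters of tested genes (0.00789%), that of Sgk1, at 189 bases before the start. The looser palindrome GNACANNNTGTNC, which every match of the full one also meets, was in 58 of the 12667 (0.458%). It was in 2 of the 252 promoters of genes lower in both GR states (0.794%) and in 1 of the 263 promoters of genes higher in both (0.38%), that of Ipcef1. The matches lay 247 bases before the start of Fyb2 and 78 before that of Serpina3n. The Fkbp5 promoter held neither motif in this window, and a match is a match of letters only.

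**Figure D4:**
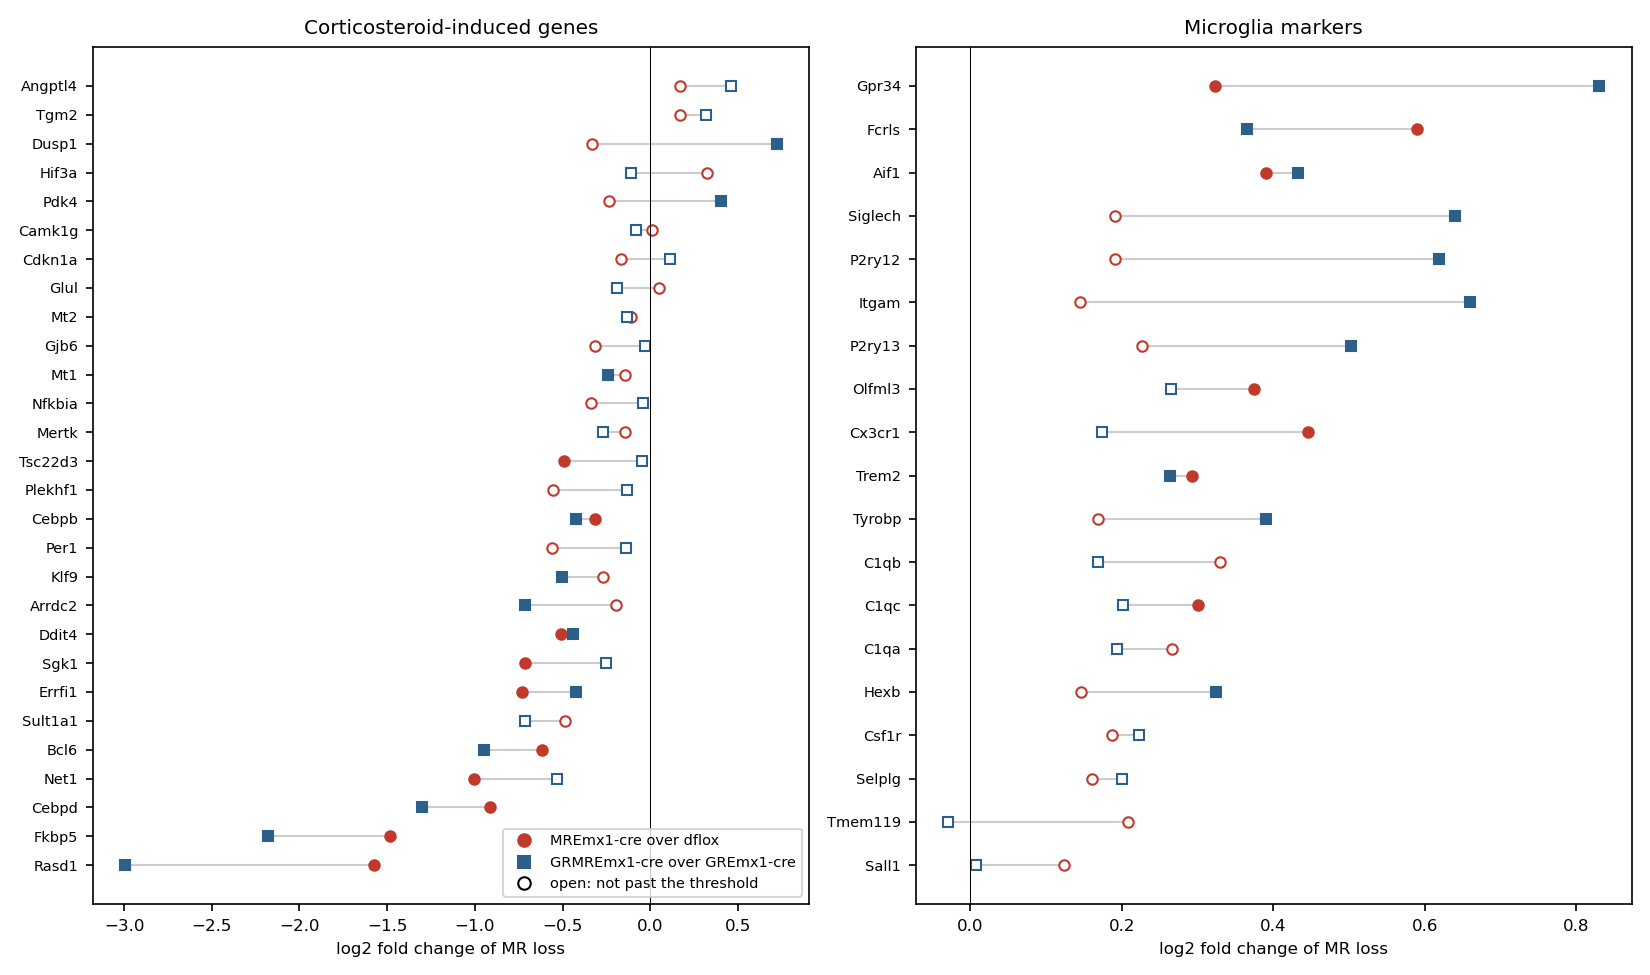
Log2 fold change with MR lost of each of 28 corticosteroid-induced genes and 19 microglia markers, shown where GR is present (circles, MREmx1-cre over dflox) and where it is absent (squares, GRMREmx1-cre over GREmx1-cre). Open symbols did not pass an adjusted p of 0.05. Called corticosteroid-induced genes lie below 0 except Dusp1 and Pdk4 where GR is absent, and called microglia markers lie above 0.

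Markers of every principal cell field of the hippocampus included genes that fell. Bulk arrays cannot tell fewer cells of a type from less RNA per cell. Of 20 dentate granule cell markers, 3 were higher and 8 lower, and all but 2 of these 11 calls held in both GR states. Of all genes, 10.1% were called higher and 5.57% lower, and 3.71% were called the same way in both GR states. Calb1, the calcium buffer calbindin of mature granule cells and CA1, had levels of 1.98, 2.32, 1.98 and 1.87 in MREmx1-cre and 1.91, 1.86 and 1.91 in GRMREmx1-cre, against 3.40, 3.53, 3.12 and 3.66 in dflox and 3.49, 3.55, 3.50 and 3.45 in GREmx1-cre. The 2 genotypes without MR overlapped each other and lay wholly below the others. Calb1 fell by 1.49 ± 0.08 on the log2 scale (adjusted p = 4.06e-07, 2.80-fold). The matrix protein Npnt (-1.44) and the guidance molecule Sema5a (-0.65) also fell, the last with another probe at -0.06. Pdyn, the prodynorphin of granule cells, was higher by 0.87 ± 0.11, with levels from 2.88 to 3.72 without MR and from 2.04 to 2.76 with MR, and Marcks, an actin-binding protein kinase C substrate, was higher by 0.38 ± 0.04. Rasl10a, a Ras-like protein, was the other marker that rose (0.48). Dentate markers thus moved in both directions, and the median of the 20 was -0.17.

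Of 16 CA2 pyramidal cell markers, 1 was higher and 8 lower, 7 of them in both GR states, and the median of the 16 was -0.36. Over all genes the shares were 10.1% higher, 5.57% lower and 1.7% lower in both GR states. Amigo2, a cell adhesion molecule that defines CA2, had levels of -2.80, -3.19, -3.61 and -3.31 in MREmx1-cre and -3.08, -3.09 and -3.14 in GRMREmx1-cre, against -1.495, -2.37, -2.18 and -1.61 in dflox and -1.75, -1.76, -1.78 and -1.58 in GREmx1-cre. All arrays without MR were below all arrays with MR. The fall was 1.39 without GR and 1.31 with GR on the log2 scale, and -1.35 ± 0.14 over both (adjusted p = 2.20e-05). Cacng5, an AMPA receptor auxiliary subunit (-1.14), Necab2, a calcium-binding protein (-1.01), Ccdc3 (-0.88) and Vit (-0.68) were lower as well, and so were Stard5 (-0.38), a lipid transfer protein, and Pcp4 (-0.33), a calmodulin regulator. The higher marker was Tgfb1i1 (0.20, adjusted p = 0.0334), a call lost on leaving out any of 6 single arrays. The list deviation of CA2 markers ran from -0.30 to -0.02 without MR and from 0.07 to 0.33 with MR, without overlap.

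CA1 markers split evenly, with 4 higher and 4 lower of 12 and a median of 0.05, though the 4 higher became 2 without dflox replicate 1, dflox replicate 3, MREmx1-cre replicate 2 or any of the 3 GRMREmx1-cre arrays. Next to Spink8, the falls included Lefty1, a secreted Nodal antagonist, at levels from -1.51 to -0.01 without MR and from -0.01 to 0.85 with MR. Lefty1 fell by 1.57 ± 0.21 on the log2 scale (adjusted p = 2.14e-04). Wfs1, the endoplasmic reticulum protein that marks dorsal CA1, moved the other way, with levels from 4.54 to 4.85 without MR and from 3.76 to 4.30 with MR, and was higher by 0.65 ± 0.07, equally without GR (0.66) and with GR (0.65). The other falls were Fam163b (-0.60) and Fibcd1 (-0.34), and the other rises included Dcn (0.60) and Zdhhc2 (0.12). Leaving out 1 array ended the calls of Fibcd1 (GRMREmx1-cre replicate 3, -0.30), Dcn (GRMREmx1-cre replicate 2, 0.54) and Zdhhc2 (any of 9). Of 10 CA3 markers, 0 were higher and 4 lower. Calls made up 66.7% of the CA1 list and 40% of the CA3 list, against 15.6% of all genes. Homer3, a postsynaptic scaffold protein, lies among the 200 tested genes nearest Nr3c2. There, receptor loss and the flanking chromosome cannot be told apart in GRMREmx1-cre against GREmx1-cre. Homer3 fell by 1.24 ± 0.13 (-1.62 without GR and -0.91 with GR). The transcription factor St18 fell by 0.79, the copine Cpne4 by 0.42 and the kainate receptor subunit Grik4 by 0.32. Among 13 neurogenesis and progenitor markers, 3 were higher and 0 lower, namely the immature neuron factors Sox11 (0.59 ± 0.07), Dcx (0.41) and Sox4 (0.34), of which Sox11 passed in both GR states. These are 23.1% of the list, against 10.1% of all genes called higher and 15.6% called either way, and its median was 0.0022.

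Microglial transcripts shifted by small amounts and in one direction. Of 19 microglia markers 17 were higher and 0 lower without MR, with a median of 0.28 against 0.03 over all genes, and 4 were higher in both GR states. Of all genes, 10.1% were called higher and 2.01% were higher in both GR states. The list deviation ran from 0.07 to 0.34 over the arrays without MR and from -0.23 to -0.06 over the arrays with MR. Gpr34, a lysophospholipid receptor, had levels of -0.63, -0.66, -0.76 and -0.66 in MREmx1-cre and -0.46, -0.41 and -0.57 in GRMREmx1-cre, against -1.11, -0.96, -0.98 and -0.95 in dflox and -1.36, -1.26, -1.24 and -1.39 in GREmx1-cre. Both genotypes without MR were above both with MR, and the distance was the wider where GR was absent. Its difference was 0.83 without GR and 0.32 with GR (interaction 0.51, adjusted p = 0.0131). The other 3 markers higher in both states were Fcrls (0.49), Aif1, the actin-bundling protein Iba1 (0.41), and Trem2, a lipid-sensing receptor (0.28). Of the homeostatic receptors, the purinergic P2ry12 was higher by 0.39 ± 0.09 (adjusted p = 0.0121) and the fractalkine receptor Cx3cr1 by 0.32 ± 0.09 (adjusted p = 0.0259), a call lost without dflox replicate 4 or MREmx1-cre replicate 2. The count of higher markers was between 14 and 17 on leaving out single arrays and 14 when arrays were scaled to their median. With normexp background correction, which moved the median of all genes to 0.21, 2 of the 19 were called higher and their median was 0.27.

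Genes of activated microglia showed 5 higher and 0 lower of 14, or 3 higher without GRMREmx1-cre replicate 2, against 10.1% of all genes called higher. The list median was 0.41 without GR and 0.14 with GR, and the list deviation ran from 0.34 to 0.53 in GRMREmx1-cre and from -0.13 to 0.10 in MREmx1-cre. The difference between the GR states was not tested for the list. Itgax, the integrin CD11c, was higher by 1.18. Cst7, a cystatin, was dim, above background on 0 of 4 dflox arrays, with 1.58 without GR (adjusted p = 3.66e-04) and a rise of at least 1.30-fold with GR that did not pass (adjusted p = 0.121). Cd68, a lysosomal protein, was higher in both GR states (0.32) while Ccl4, a chemokine (0.57), and Cybb, a subunit of the phagocyte oxidase (0.50), were higher over both states. Each passed only the comparison without GR, with Ccl4 at 0.95 without GR and 0.24 with GR and Cybb at 0.67 without GR and 0.36 with GR, and neither interaction passed (adjusted p = 0.167 and 0.603). Without GRMREmx1-cre replicate 2 neither Ccl4 (0.49) nor Cybb (0.44) passed. The other glial and vascular lists moved less. Calls made up 21.4% of astrocyte markers, 45.5% of reactive astrocyte genes and 22.2% of oligodendrocyte progenitor markers, against 15.6% of all genes. The share was 9.09% for endothelial, 18.2% for fibroblast and 8.33% for interneuron markers. Astrocyte markers had 2 higher and 1 lower of 14, with Gfap, the glial filament protein, at 0.27 ± 0.07, the water channel Aqp4 at 0.25 (a call lost on leaving out any of 11 arrays) and the bicarbonate transporter Slc4a4 at -0.34. The Gfap call was lost with median scaling and without MREmx1-cre replicate 2 and GREmx1-cre replicate 1, and that of Slc4a4 with averaged probes, another of which was at 0.03. With median scaling 0 astrocyte markers were higher. Reactive astrocyte genes had 3 higher and 2 lower of 11, among them the oncostatin M receptor Osmr (0.61 ± 0.08) and the hyaluronan receptor Cd44 (0.77 ± 0.13) on one side and the serpin Serpina3n (-0.82 ± 0.11) on the other. The remaining calls of that list, Timp1 (0.28) and Emp1 (-0.28), were lost on leaving out any of 12 and any of 6 arrays. Oligodendrocyte progenitor markers had 2 higher and 0 lower of 9, Gpr17 (0.26) and Pdgfra (0.29), whose calls depended on single arrays, and the count was 0 without GRMREmx1-cre replicate 3 and 5 without GREmx1-cre replicate 3. In 13 myelin genes, 13 choroid plexus markers and 3 red blood cell genes, 0 passed the test in limma, and 0 had an unadjusted p below 0.05. The choroid plexus median was -0.89, with the range of its list deviation at -4.14 to 1.06 without MR and -0.33 to 1.22 with MR. Endothelial markers had 1 higher (Flt1, 0.19) and 0 lower of 11, meningeal and perivascular fibroblast markers 1 higher (Dcn, 0.60) and 1 lower (Ogn, -0.76) of 11, and interneuron markers 0 higher and 1 lower (Cck, -0.23) of 12.

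Tissue from beside the hippocampus was checked with 2 lists, and its part in these results was not tested. Striatum and neocortex markers had 3 higher and 0 lower of 12, led by Rspo1, a Wnt-enhancing R-spondin (1.08 ± 0.12), and Rgs9 (0.60), with Adora2a at 0.16 (adjusted p = 0.0458). Calls made up 25% of this list and 44.4% of the thalamus and habenula list, against 15.6% of all genes. The deviation of the striatum and neocortex list was -0.02 to 0.27 without MR and -0.43 to 0.07 with MR. Thalamus and habenula markers had 3 higher (Plekhg1 0.62, Tcf7l2 0.30, Lef1 0.22) and 1 lower (Slitrk6, -0.79) of 9, and each of the 3 higher genes had another probe near 0, between -0.02 and 0.07.

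**Figure D5:**
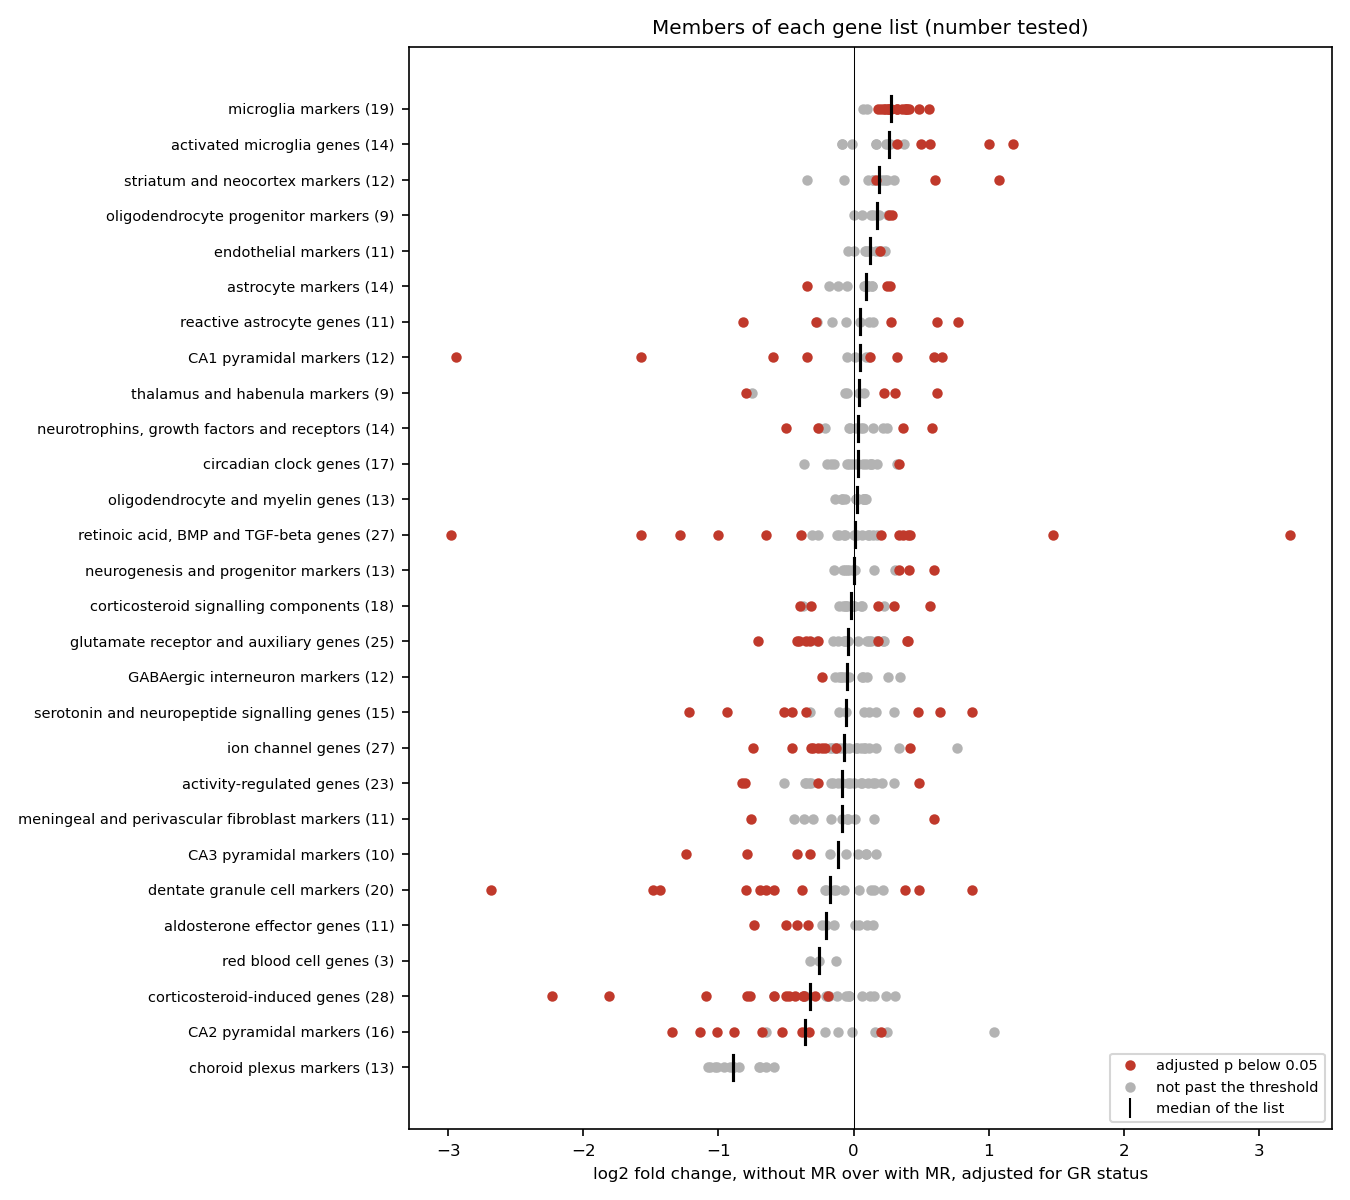
Log2 difference between arrays without MR and arrays with MR, adjusted for GR status, for each tested member of the gene lists. Red points passed an adjusted p of 0.05, grey points did not, and the bar marks the median of a list. The microglia markers lie above 0 as a group, and the called corticosteroid-induced genes lie below 0.

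Signalling genes moved in both directions. Among 27 genes of the retinoic acid, bone morphogenetic protein (BMP) and TGF-beta pathways, 7 were higher and 6 lower, with a median of 0.01. Together these are 48.1% of the list, against 15.6% of all genes called. In both GR states only Aldh1a3 and Bmp3 were higher and 4 genes were lower, against 2.01% and 1.7% of all genes. Beside Aldh1a3, the retinoid genes that passed were the degrading enzyme Cyp26b1 (0.42 ± 0.10), the retinol carrier Rbp4 (0.37 ± 0.09) and the receptor Rarb (0.34 ± 0.06), which were higher, and the binding protein Crabp1 (-1.001 ± 0.20), which was lower. Among antagonists, Grem1, the activin-binding follistatin Fst (-1.29 ± 0.19, one array with MR missing) and Chrd (-0.39) fell, while Nog was at 0.40 (adjusted p = 0.0441), a call lost on leaving out any of 10 single arrays. The ligands divided likewise, as Bmp3 rose and Tgfb2 fell by 0.65 ± 0.08 on the log2 scale. For Tgfb2 the levels were 0.10 to 0.73 without MR and 0.82 to 1.17 with MR.

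Among 14 growth factors and receptors, Fgfr1 (-0.50 ± 0.07) and Bdnf (-0.27 ± 0.07), the neurotrophin, were lower and Nrg1 (0.58) and Igfbp5 (0.37) higher. Of 15 serotonin and neuropeptide genes, 3 were higher and 5 lower. Calls made up 28.6% of the growth factor list and 53.3% of the serotonin and neuropeptide list, against 15.6% of all genes. Penk, the enkephalin precursor, fell by 0.94 ± 0.14 on the log2 scale while its relative Pdyn rose. The levels of Penk were 1.76 to 2.65 without MR and 2.83 to 3.37 with MR. The somatostatin receptor Sstr1 was higher by 0.64 and Tph2, the neuronal tryptophan hydroxylase, by 0.48, while the receptors Npy1r (-0.52) and Htr5b (-0.46) were lower. The serotonin receptor Htr4 was not well above background on any array without MR and was at least 1.39-fold lower (adjusted p = 3.74e-04), and it lies among the 200 tested genes nearest Nr3c1. Htr1a, the serotonin receptor long linked to corticosteroid control, had -0.36 ± 0.10 (adjusted p = 0.0306), a call lost on leaving out any of 10 single arrays.

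Among genes of excitability, 1 of 27 ion channel genes was higher and 8 were lower, and of 25 glutamate receptor genes 3 were higher and 6 lower, against 10.1% higher and 5.57% lower over all genes. The 8 lower ion channel genes became 4 without dflox replicate 4, GRMREmx1-cre replicate 2 or GRMREmx1-cre replicate 3 and 5 without dflox replicate 1, dflox replicate 2 or GREmx1-cre replicate 4, and the 3 higher glutamate receptor genes became 5 without GREmx1-cre replicate 1. The sodium channel subunit Scn3b (-0.74 ± 0.08) and the calcium-activated potassium channel Kcnn2 (-0.30), which lies among the 200 tested genes nearest Nr3c1, were lower in both GR states, and Kcnab2 (-0.46), a potassium channel subunit, over both. The T-type calcium channel Cacna1g was higher (0.42). Grm2, a presynaptic glutamate receptor (-0.71), and the auxiliary subunits Cnih2 (-0.42) and Neto1 (-0.35) were lower in both GR states, and the related receptor Grm3 (0.40) and the auxiliary subunit Cacng3 (0.40) were higher. Grin2b, an NMDA receptor subunit, was at 0.18 (adjusted p = 0.0435), with its 5 probes between -0.11 and 0.28. Among 23 activity-regulated genes, 1 was higher, Nr4a2 (0.48), and 3 were lower, Ptgs2 (-0.83 ± 0.09), Atf3 (-0.80 ± 0.13) and Bdnf, together 17.4% against 15.6% of all genes. Of 17 clock genes, Npas2 (0.34) passed alone (5.88% of the list). Of 18 components of corticosteroid signalling, 3 were higher and 2 lower, namely Nr3c1, the corticotropin-releasing hormone receptor Crhr1 (0.30) and the Hsp90 co-chaperone Ptges3 (0.18) on one side and Nr3c2 and the co-chaperone Dnajb1 (-0.31) on the other. Without GRMREmx1-cre replicate 2 Ptges3 (0.17) did not pass. The Dnajb1 call was lost on leaving out any of 6 single arrays (-0.30 without GRMREmx1-cre replicate 2). It was also lost with averaged probes or the slide as a random block. The Crhr1 call was lost with averaged probes and without MREmx1-cre replicate 2 and GREmx1-cre replicate 1. Dnajb1 also lies among the 200 tested genes nearest Nr3c2. Calls made up 27.8% of this signalling list, against 15.6% of all genes.

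Genes whose MR difference changed with the GR status made up a larger share beside Nr3c2 than elsewhere. In a window of 200 tested genes centred on Nr3c2, 19 (9.5%) passed the interaction test. That compares with 0 of 200 beside Nr3c1 and 1.05% of the remaining 15539 named genes. At an unadjusted p below 0.05 by limma the counts were 82 beside Nr3c2, 26 beside Nr3c1 and 2776 among the others. The 200 genes beside Nr3c2 were called in 34% of cases without GR and in 7% with GR, while the other genes were called in 17.7% without GR and 7.62% with GR. Both-state calls were 2.5% of the genes beside Nr3c2, 3.5% of those beside Nr3c1 and 4.38% of the others. Slc35e1, a solute carrier family member beside Nr3c2, had levels of -1.82, -1.68, -1.55 and -1.61 in MREmx1-cre and -1.78, -1.72 and -1.62 in GRMREmx1-cre, against -1.62, -1.51, -1.61 and -1.36 in dflox and -0.68, -0.43, -0.39 and -0.38 in GREmx1-cre. The 3 genotypes that come from lines with a floxed Nr3c2 allele overlapped, and GREmx1-cre, from the line floxed at Nr3c1 alone, stood above them. The difference was -1.24 without GR and -0.14 with GR (interaction -1.10, adjusted p = 0.00294), although another probe of the gene gave 0.17 over both states. Best2, a chloride channel, and Adcy7, an adenylyl cyclase, also lie beside Nr3c2 and were among the 10 largest interactions. In GRMREmx1-cre against GREmx1-cre, receptor loss and the floxed Nr3c2 allele with its flanking chromosome cannot be told apart.

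Among genes elsewhere in the genome that passed both the additive and the interaction test, the largest interactions in each direction included those of Rasd1, Myoz1 (-1.28), Olfr288 (-1.25), Chrdl1 (1.08) and Plcz1 (1.02). Chrdl1, a chordin-like BMP antagonist, had levels of -1.79, -1.87, -1.88 and -1.68 in MREmx1-cre and -0.43, -0.24 and -0.38 in GRMREmx1-cre, against -2.52, -2.13, -2.12 and -2.13 in dflox and -1.92, -1.95, -1.79 and -1.75 in GREmx1-cre. GRMREmx1-cre stood alone above all others, and the difference was 1.503 without GR and 0.42 with GR (interaction adjusted p = 0.00453). Both values passed, so Chrdl1 was higher without MR in each GR state by unequal amounts. Myoz1 was well above background on 1 of the 3 GRMREmx1-cre arrays.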

How the data were processed

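RNA of 15 mouse hippocampus samples was hybridised to 1-colour Agilent arrays (Cy3). The submitters' processing notes name Agilent Feature Extraction 12.0. A spot's value is its processed intensity, already background-corrected per the file headers, and flag columns (other values, 0 or 1) mark spots well above background or outlying. The value table the authors deposited held the same intensity at 45018 of 45018 spots.

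Of the spots, 43379 were not controls. Each intensity was put on the log2 scale, which was not part of the deposited files, and the 75th percentile of the array over these spots was subtracted. Outlier spots were left out and spots of a probe averaged (41174 probes). Accessions were matched to RefSeq names (GRCm38.p6, while the array was designed on mm9, so only names, neighbours and RefSeq promoters were used): 28223 probes had 1 symbol and 12951 none. A probe had to be well above background on at least 3 arrays, and the brightest probe stood for a gene (22871 genes, 15941 with a symbol). Of these, 12667 matched a promoter.

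MR loss was fitted in limma 3.58.1 (R 4.3.3) as an additive term beside GR loss, and in a group means model within each GR state and as the interaction (without GR minus with GR). Adjusted p-values are limma's with Benjamini-Hochberg adjustment at 0.05 over all genes, and errors are SEs. List deviations are means over members of the level minus the gene's mean over all arrays. "At least" folds set the bright side against the higher of the dim probe and the lowest signal well above background. On simulated data with 22761 genes the additive fit called 74 of 100 genes changed by 0.5, 88 of 100 changed by 1 and 10 of 22561 unchanged ones. Calls in both GR states numbered 48, 68 and 0. The simulated noise was independent between arrays, without slide, replicate or dissection effects, so these rates need not hold for the real arrays.

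The 21 pairs of arrays with the same replicate number correlated at -0.03 to 0.20, 6 of them above 0.1, and other pairs at -0.15 to 0.11. The design names no pairs, so the numbers were not taken as pairs in the main fit. A fit with them as a block is given below. Alternatives were scaling, background correction, probe filters and summaries, slide and replicate blocks, and leaving out arrays. The files hold no mean signal, so normexp ran on the median signal.

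The members and gene lists were chosen with earlier results of these data known. Named were both receptor genes, the 15 largest rises and 15 largest falls called in both GR states with all 7 arrays on one side of all 8 and well above background on the brighter side, up to 4 members of each list, and 5 interactions in each direction. The remaining names, such as Klf9, P2ry12, Cx3cr1, Cyp26b1, Crabp1, Rspo2, Frzb and the further keratins, were chosen after their values were seen. Some genes within these rules are not reported here. The plots used Python 3.11.15 and matplotlib 3.10.9.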

Additional observations from a re-analysis of the deposited data

Results flagged for a closer look

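Single arrays lay far from the other 3 of their genotype for 27 of 461 gene and genotype combinations with 4 arrays, judged by the gap to the nearest array as a share of the range of the 4. Chance alone flags about 1 in 20 such groups. The array dflox replicate 3 was the lowest dflox array for Grem1 (gap share 0.911), Fyb2 (gap share 0.86), Wipf3 (gap share 0.932), Grik4 (gap share 0.832), Scn3b (gap share 0.904), Kcnab2 (gap share 0.866) and Fst (gap share 0.835), all of which fell without MR. In MREmx1-cre, replicate 1 was the highest for Pdk4 (0.933), replicate 1 was the lowest for Wfs1 (0.857), replicate 2 was the highest for Nedd4l (0.835), replicate 3 was the highest for Tgfb2 (0.88) and Stard5 (0.896), replicate 3 was the lowest for Grm3 (0.923) and replicate 4 was the highest for Myoz1 (0.842). In dflox, replicate 1 was the lowest for Gpr34 (0.836) and Chrdl1 (0.98), replicate 2 was the highest for Igfbp5 (0.838), Cebpb (0.89) and Grin2b (0.834) and replicate 4 was the highest for Sox11 (0.873). In GREmx1-cre, replicate 1 was the lowest for Rxrg (0.848), replicate 2 was the highest for Cd44 (0.845), replicate 2 was the lowest for Fibcd1 (0.868), replicate 3 was the highest for Cacna1g (0.912), replicate 3 was the lowest for Ccdc3 (0.91) and replicate 4 was the highest for Gm34996 (0.842) and Amigo2 (0.873).

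The array dflox replicate 3 was also the lowest dflox array for 309 of the 388 genes lower in both GR states (79.6%, against 27.5% of all 22871 genes), and the highest for 173 of the 460 genes higher in both (37.6%, against 24.7% of all genes). Its levels thus lay nearer to those of the arrays without MR for most of the falls, and for 14 of the 15 largest. What sets this array apart was not tested, and without it the numbers of genes in both GR states were 418 higher and 440 lower.

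The MR difference changed with the GR status for 11 named genes, tested as the difference without GR minus that with GR. It was more negative without GR for Nr3c2 (-0.617), Rasd1 (-1.41), Myoz1 (-1.28), Olfr288 (-1.25) and Slc35e1 (-1.1), and more positive for Gpr34 (0.507), Adcy7 (0.826), Olfr1221 (0.846), Best2 (0.984), Plcz1 (1.02) and Chrdl1 (1.08). Another Nr3c2 probe gave -0.84 without GR and -0.77 with GR, and the third -0.45 and -0.38. Slc35e1, Best2 and Adcy7 lie among the 200 tested genes nearest to Nr3c2. Olfr1221 and Olfr288 belong to the olfactory receptor family, whose members their probes may not tell apart.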

How the results depend on the processing

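The counts of genes were within 1.5 times of those given under quantile scaling, the deposited table with outlier spots kept, averaged probes, an all-array filter, an intensity trend, and without the genes beside the receptor loci. Median scaling gave 273 higher in both GR states and 182 interactions, and put 54.34% of additive calls higher, against 64.33%. Fitting each GR state by itself, with fewer arrays per fit, gave 204 higher and 181 lower in both. Interactions numbered 138 with no filter on dim probes and 178 without MREmx1-cre replicate 2 and GREmx1-cre replicate 1. Leaving out single arrays gave 1685 to 2324 higher and 1037 to 1417 lower in the additive model, 301 to 436 higher and 275 to 440 lower in both GR states (both lowest without dflox replicate 1), and 83 to 434 interactions, and all 30 of the largest differences kept their calls in both GR states throughout.

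Normexp background correction gave 267 higher and 312 lower in the additive model, 37 higher and 55 lower in both GR states, and 1 interaction, moved the median log2 difference of all genes to 0.21, and left 13 of the 30 largest differences called in both GR states. Its fitted background mean was -30.2, -804 and -107 on the 3 GRMREmx1-cre arrays and between 1.06 and 3.21 on the other 12. Leaving out spots at or below their local background, 16, 15 and 7 on those 3 arrays and 0 to 2 on each of the others, an alternative chosen after seeing the data, gave 1917 higher and 1276 lower, 406 and 377 in both GR states and 193 interactions, and 29 of the 30 calls, with Cyp2c23 lost. The full correction reversed Nr3c2 (0.272), Tmem215 (0.386), Wnk4 (0.0857), Fam163b (0.269), Slc4a4 (0.0712), Emp1 (0.227), Slitrk6 (0.191), Atf3 (0.0732), Htr4 (0.609), Grm2 (0.2), Myoz1 (0.517), Olfr288 (0.419), Npnt (0.146), Fst (0.0876), Htr1a (0.104), Crabp1 (0.46) and Stard5 (0.000385). Averaging probes turned Adora2a to -0.0221 and ended both-state calls of Dach1, Abi3bp and Strip2.

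With the replicate number as a block there were 2314 higher and 1261 lower genes, 523 and 397 in both GR states and 307 interactions. The numbers share only a position: 14 of 15 arrays correlated best with an array of the same number, a hint from the data and not from the design.

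Single arrays also decided the calls of Ptges3 (GRMREmx1-cre replicate 2) and Gpr17 (dflox replicate 1 or GRMREmx1-cre replicate 3, 0.22). The same held for Ccl4 (also GRMREmx1-cre replicate 1), Pdgfra, Emp1 and Dnajb1 (6 arrays each), Flt1 (10) and Adora2a (11). Olfr288 (7), Adcy7 (9), Krt9 (7) and Grin2b (10) were further such calls. Over all alternatives, single-gene results kept direction and side of the threshold 3973 times, lost the threshold 309 times and reversed 18 times. The 4575 dimmest genes held 394 higher and 80 lower calls, with a median log2 difference of 0.15.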

Other observations

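Several gene families, singled out after their values were seen, held more than 1 of the genes that followed MR in both GR states. Of 27 keratins tested, 6 were higher and 1 lower without MR, against 15.6% of all genes called. Beside Krt12 and Krt10, Krt2 rose by 1.11 ± 0.09, with levels from -0.22 to 0.55 without MR and from -1.09 to -0.62 with MR. Krt79 (0.79 ± 0.11) and Krt84 (0.75 ± 0.13) were higher in both GR states as well, and Krt9 (0.35 ± 0.10) over both. Krt5, the basal epithelial keratin, went the other way by -1.41 ± 0.11, with -1.39 where GR was absent and -1.43 where it was present.

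Secreted regulators of Wnt signalling also split. Of 13 tested, 4 were higher and 1 lower, all 5 in both GR states. These are 38.5% of the family, against 15.6% of all genes called and 3.71% called the same way in both GR states. Rspo2, an R-spondin that enhances Wnt signalling, had levels of 1.99, 1.92, 1.60 and 1.82 in MREmx1-cre and 2.16, 2.08 and 2.11 in GRMREmx1-cre, against 0.80, 0.81, 1.22 and 0.999 in dflox and 0.58, 1.01, 0.81 and 0.72 in GREmx1-cre. It was higher by 1.09 ± 0.10, and its relative Rspo1 and the modulators Dkk2 and Dkkl1 were the other 3 that rose. Frzb, a decoy for Wnt ligands, had levels of -1.24, -1.07, -1.20 and -1.24 in MREmx1-cre and -1.40, -1.31 and -1.51 in GRMREmx1-cre, against 0.18, -0.20, -0.14 and 0.07 in dflox and 0.10, 0.15, 0.19 and 0.04 in GREmx1-cre. No array overlapped across the comparison, and Frzb fell by 1.33 ± 0.08 on the log2 scale (limma adjusted p = 4.06e-07).

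Of 298 olfactory receptor genes, 46 were higher and 1 lower, 15.8% called against 15.6% of all genes. Their median log2 difference was 0.28 against 0.03 over all genes, and 4 were higher in both GR states, against 2.01% of all genes. Among all tested genes, the fifth with the lowest levels had a median of 0.15, with 394 higher and 80 lower, and the fifth with the highest levels a median of -0.01, with 362 higher and 395 lower.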
